A study of Mus musculus with 27 samples.

Results

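The collagen genes were taken from bulk RNA sequencing of mouse liver cultures as every row of the count table whose gene name is Col, a number, a and a number, for example Col1a1. The rule found 44 genes among the 21850 rows, and all 44 are named collagen alpha chains. By the kind of assembly that their proteins form, 11 are fibrillar collagens, 8 belong to basement membranes, 6 are beaded filament (type VI) chains, 9 are fibril-associated collagens with interrupted triple helices (FACITs), 4 span the plasma membrane and 6 form networks or fall outside these kinds.

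The study built periportal assembloids, in which hepatocyte organoids, bile duct cells (cholangiocytes) and portal mesenchymal cells are grown together, and asked what a surplus of mesenchyme does to them. All cells were primary, from the livers of C57BL/6 mice, and 27 libraries in 9 groups of 3 were used. Fresh hepatocytes were sequenced after isolation, and the third of them carries the genotype label MDR2-het (MDR2 is Abcb4) although its title calls it wild type. Hepatocyte organoids (HepOrgs) at passage 2 were kept for 1 or 2 weeks either in HM-Wnt medium, an expansion medium with growth factors, WNT activation and the TGFβ receptor inhibitor A83-01, or in MM medium, a basal medium with WNT conditioned medium and a ROCK inhibitor. Assembloids were made from 1000 cholangiocytes, 10 HepOrgs and either 250 mesenchymal cells (homeostatic) or 2500 (fibrotic-like), embedded in Matrigel in MM medium and collected after 1 or 2.5 weeks. According to the study's methods, the mesenchyme was sorted as PDGFRα and SCA1 positive cells from reporter mice that carry nuclear GFP, the cholangiocytes came from nuclear tdTomato mice, and neither endothelial nor immune cells were added. No source says whether replicates came from separate animals, so the p-values measure the spread between these libraries, which may be technical.

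Every collagen chain carries a stretch of Gly-X-Y triplets, in which glycine leads each triplet, and chains wind around each other there into a triple helix. Fibrillar chains hold long unbroken stretches and pack into the banded fibrils that make up scar tissue, with types I and III as the main fibrils of the liver and type V chains helping to start them. Type IV chains form the sheet of basement membranes, to which types XV and XVIII attach, and type VI chains form fine beaded filaments around cells. In the liver, fibroblast-like cells (portal mesenchyme and stellate cells) are the known source of most fibrillar collagen, whereas epithelial and endothelial cells also make basement membrane chains, and hepatocytes are known to express Col18a1, the parent of endostatin.

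The repeat that defines the family can be read in the coding sequence, and exons are shown for chains on which the results below turn. Fibrillar genes are built largely from exons of 54 bases, and 305 of the 647 coding exons of the 11 fibrillar genes in the GENCODE vM39 annotation of GRCm39 have this length (47.1%), against 16 of 377 in the 8 basement membrane genes (4.24%). The capitals mark in-frame GGN codons, which code for glycine, and each of the first 6 exons holds 6 of them at a spacing of 9 bases. The exons lie at chr11:94830730-94830783 (plus strand, coding exon 8 of Col1a1), chr6:4515481-4515534 (plus, coding exon 8 of Col1a2), chr1:45364520-45364573 (plus, coding exon 6 of Col3a1), chr1:45474052-45474105 (minus, coding exon 6 of Col5a2), chr8:11295211-11295264 (minus, coding exon 7 of Col4a1) and chr10:76555457-76555510 (minus, coding exon 9 of Col6a1). The last line is coding exon 15 of Col4a1, 51 bases at chr8:11289827-11289877 on the minus strand, shown for a break in the repeat where the next glycine codon follows after 6 bases.
Col1a1: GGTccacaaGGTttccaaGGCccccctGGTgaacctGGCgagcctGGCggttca
Col1a2: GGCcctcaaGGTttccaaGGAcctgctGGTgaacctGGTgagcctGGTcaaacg
Col3a1: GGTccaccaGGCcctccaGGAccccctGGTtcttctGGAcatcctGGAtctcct
Col5a2: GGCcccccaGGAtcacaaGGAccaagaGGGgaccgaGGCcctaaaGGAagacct
Col4a1: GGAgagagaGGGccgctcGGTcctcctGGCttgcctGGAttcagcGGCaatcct
Col6a1: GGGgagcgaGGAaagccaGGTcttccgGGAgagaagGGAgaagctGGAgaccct
Col4a1: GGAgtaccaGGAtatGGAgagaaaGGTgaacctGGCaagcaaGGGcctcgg

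The longest unbroken run of such triplets was 216 to 344 (median 338) in the fibrillar genes. It was 30 to 66 in the basement membrane genes, 37 to 87 in the beaded filament genes, 32 to 113 in the FACIT genes, 40 to 56 in the transmembrane genes and 23 to 75 in the rest. The count table and the annotation also place several members next to each other. Col4a1 and Col4a2 lie head to head on chromosome 8 with 356 overlapping bases, and Col4a3 and Col4a4 do so on chromosome 1 with 159. Col18a1 shares 8825 bases with Slc19a1 on the other strand. All these overlaps are of whole gene spans, introns included. The libraries carry no strand mark, so reads from exons of both genes in such an overlap cannot be assigned to 1 of them. How much of the overlaps lies in exons of both genes was not measured.

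Total counts ranged from 30289364 to 65348596 per library. One homeostatic library at 1 week, replicate 2, stood apart with 8465 genes detected, against 14016 to 16018 in the other 26, and with 19 collagens at 0 counts, against 1 to 10 elsewhere. Its summed hepatocyte markers were 3023 CPM (counts scaled to a common library size by the TMM method), against 85255 and 39516 in the other 2 libraries of its group. The third fibrotic-like library at 1 week also differed from its group, with 4489 CPM of summed cholangiocyte markers against 1113 and 351, and 3095 CPM of hepatocyte markers against 17868 and 21236. Both were kept, and results that rest on them are given with and without them.

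Collagen reads were a small part of every library and reached their highest share in the fibrotic-like assembloids. They took 0.352%, 0.787% and 0.0943% of counts in the 3 fibrotic-like libraries at 1 week, and 0.144%, 0.734% and 0.521% at 2.5 weeks. The homeostatic libraries held 0.0169%, 0.168% and 0.0489% at 1 week and 0.0251% to 0.0329% at 2.5 weeks. Fresh hepatocytes held 0.0129% to 0.0186%, HM-Wnt HepOrgs 0.00634% to 0.0182% and MM HepOrgs 0.0132% to 0.0365%. At 2.5 weeks the lowest fibrotic-like library was above the highest homeostatic one, whereas at 1 week the replicates that stood apart, homeostatic replicate 2 and fibrotic-like replicate 3, crossed over. In bulk samples fewer cells of a type and less RNA per cell cannot be told apart, so these shares are levels of the whole culture.

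**Figure D1:**
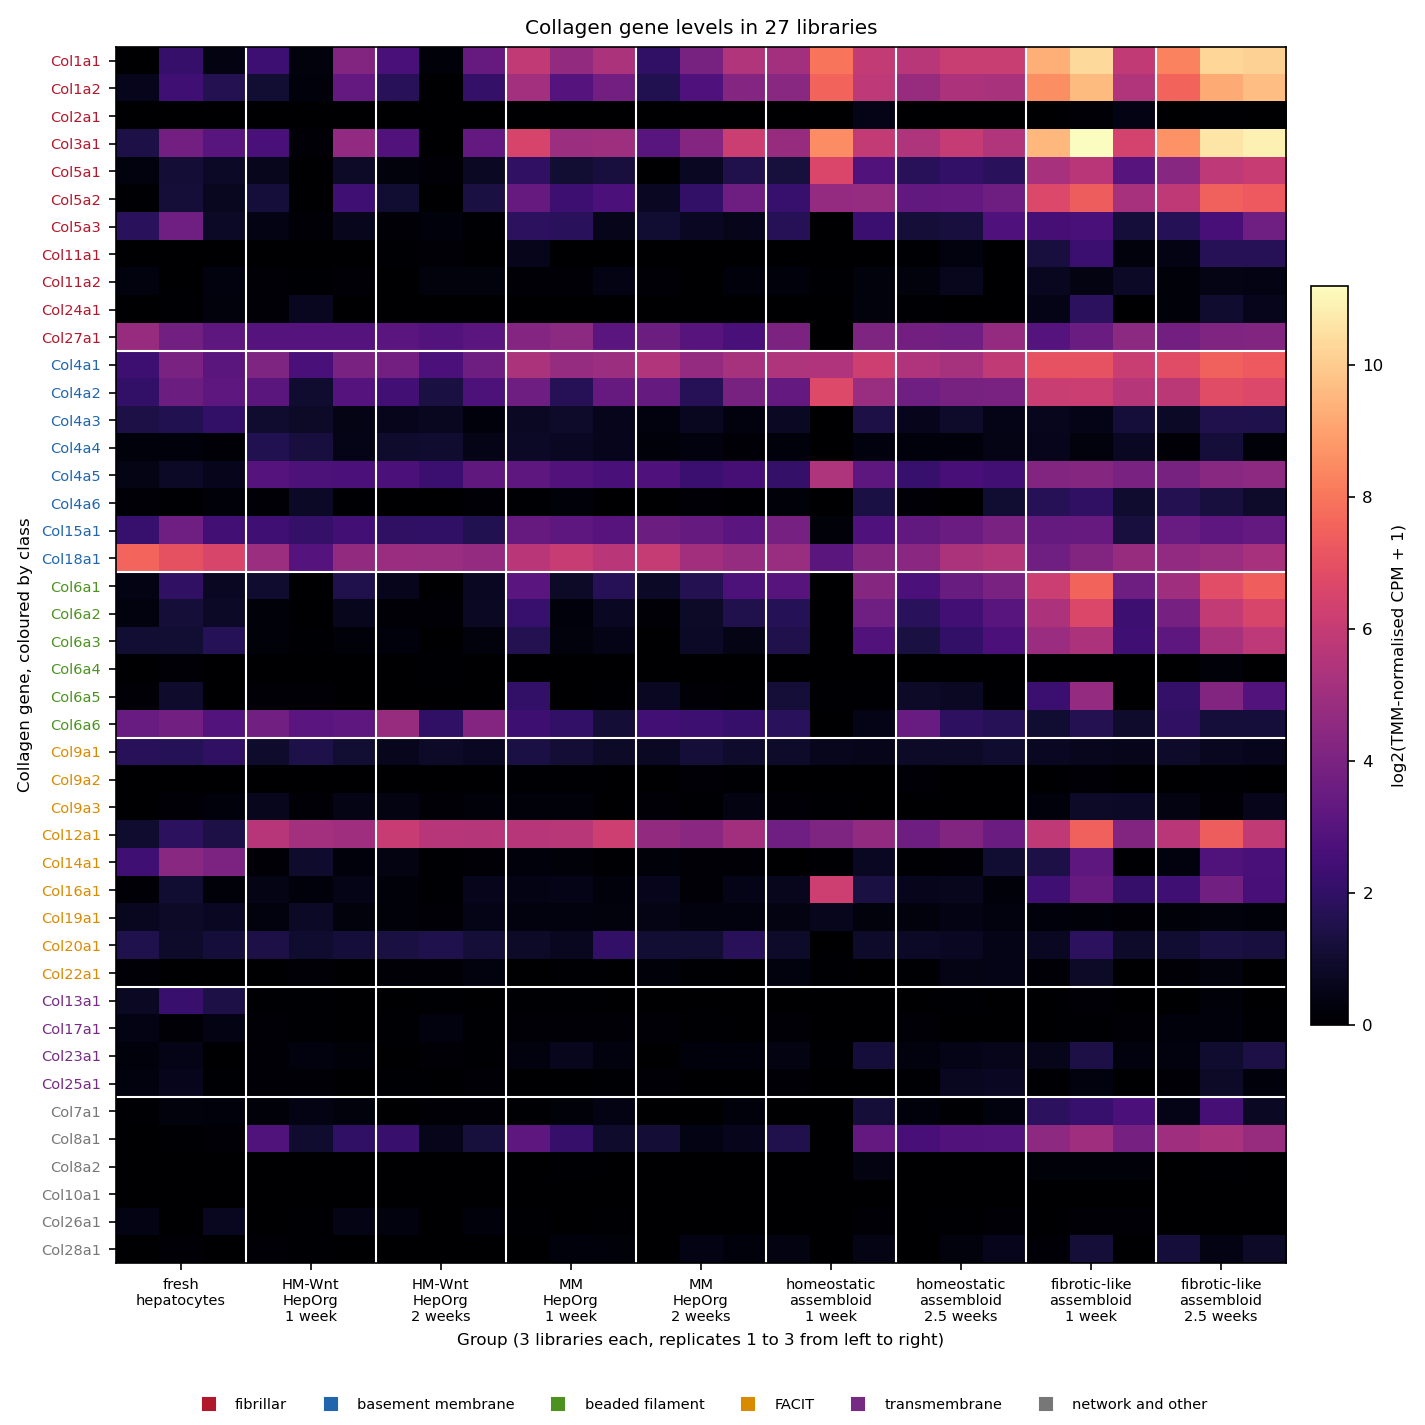
Level of each of the 44 collagen genes (rows, coloured by class) in each of the 27 libraries (columns, 3 per group), as log2 of the TMM-normalised CPM plus 1. Col1a1, Col1a2 and Col3a1 are brightest in fibrotic-like assembloids, apart from replicate 3 at 1 week, Col18a1 in fresh hepatocytes, and Col12a1 is dark in fresh hepatocytes and bright in all HepOrgs.

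The make-up of the collagen counts differed between culture types. Basement membrane genes took 63.4% to 78.7% of collagen counts in fresh hepatocytes, where fibrillar genes took 12.03% to 17.5%. In fibrotic-like assembloids at 2.5 weeks the fibrillar share was 72.9% to 84.7% and the basement membrane share 6.64% to 15.9%. Homeostatic assembloids at 2.5 weeks lay between, with 50.4% to 56.2% fibrillar and 30.0% to 36.0% basement membrane counts, and their range did not overlap that of the fibrotic-like libraries. FACIT genes took 31.5% to 48.4% in HM-Wnt HepOrgs at 2 weeks and 20.7% to 47.1% at 1 week, against 1.42% to 7.57% over all assembloids. No share was tested.

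**Figure D2:**
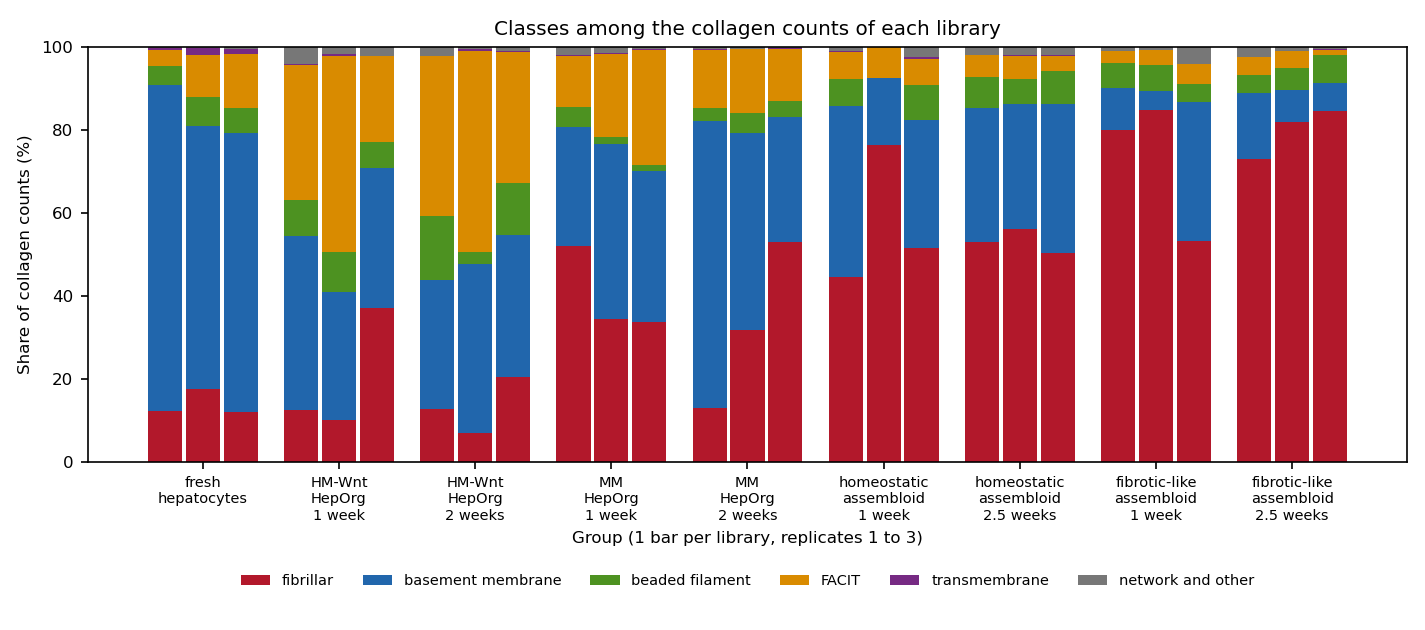
Share of each collagen class among the collagen counts of each library, in percent, with 1 stacked bar per library and 3 libraries per group. The fibrillar part is 72.9% to 84.7% in fibrotic-like assembloids at 2.5 weeks, and the basement membrane part is 63.4% to 78.7% in fresh hepatocytes.

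Levels of different collagens can be compared only per length, here as CPM per kilobase of the exons of each gene's canonical transcript (mean ± SD, n = 3). Col18a1 led in fresh hepatocytes with 24.7 ± 9.28, followed by Col27a1, a fibrillar chain of cartilage and other tissues, with 2.08 ± 1.26. In HM-Wnt HepOrgs at 2 weeks Col18a1 (4.82 ± 0.287) and Col12a1 (4.5 ± 0.91), a FACIT that sits on the surface of type I fibrils, were within their spread of each other. In MM HepOrgs at 1 week Col18a1 (10.1 ± 1.45), Col3a1 (8.98 ± 6.35) and Col1a1 (7 ± 3.05) overlapped in their spread. Homeostatic assembloids at 2.5 weeks were led by Col1a1 (10.5 ± 1.72) and Col3a1 (9 ± 2.31), followed by Col4a1 (6.82 ± 1.69), Col1a2 (6.5 ± 1.28) and Col18a1 (6.33 ± 2.33), neighbours that did not differ beyond their spread. In fibrotic-like assembloids at 2.5 weeks Col3a1 reached 236 ± 146, Col1a1 151 ± 84.7 and Col1a2 99.6 ± 60.5, ahead of Col6a1 (25.9 ± 17.1), Col4a1 (22.5 ± 5.06) and Col5a2 (17.2 ± 8.5).

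The central comparison set fibrotic-like against homeostatic assembloids. At 2.5 weeks the fibrillar chains Col1a1, Col1a2, Col3a1, Col5a1 and Col5a2 and the type IV chains Col4a1 and Col4a2 were higher in each fibrotic-like library than in each homeostatic one, by 3.70 to 4.70 on the log2 scale for these 5 fibrillar chains. None of these differences passed edgeR's quasi-likelihood test at an adjusted p of 0.05 with all 4 assembloid groups in 1 fit. That fit called 0 of the 37 collagens tested, and 0 of all 14255 genes (percent called 0). At an unadjusted p under 0.05 it had 12 of 37 collagens, beside 944 of 14255 genes. DESeq2 on the same libraries called 8 collagens, all higher, where it called 1.92% of all genes. limma-voom with library quality weights, chosen after seeing the data, called 15, all higher, with 7.7% of all genes called, and edgeR on only the 6 libraries compared called 13, all higher, with 5.53%. limma on log2(TPM + 0.1) called 0 collagens and 0.00931% of all genes.

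Col1a1, the main chain of type I collagen, had 50.2, 67.9 and 68.0 CPM in homeostatic replicates 1 to 3 at 2.5 weeks and 318, 1243 and 1119.5 CPM in the fibrotic-like ones. Col1a2, its partner chain, had 26.97, 39.7 and 37.8 against 185, 591 and 826 CPM. Col3a1, the type III chain, had 41.3, 64.8 and 44.1 against 398, 1581 and 1957 CPM. Fibrotic-like replicate 1 was the lowest of its group for all 3 genes and still lay above each homeostatic library. The log2 fold change was 3.83 ± 1.07 (SE) for Col1a1, 3.93 ± 1.07 for Col1a2 and 4.70 ± 1.28 for Col3a1. The edgeR adjusted p was 0.714 for Col1a1, with a range over the alternatives from 0.00444 to 1, and for Col3a1 that range was 0.00421 to 1.

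Of the type V chains, which nucleate type I fibrils, Col5a1 and Col5a2 separated the groups and Col5a3 did not. Col5a1 had 2.40, 3.12 and 2.51 CPM in homeostatic and 19.6, 55.3 and 65.5 CPM in fibrotic-like assembloids at 2.5 weeks (log2 fold change 4.10 ± 1.34, edgeR adjusted p = 0.726). Col5a2 had 8.85, 9.18 and 11.6 against 56.8, 177 and 156 CPM (3.70 ± 0.81, unadjusted p = 0.000898, range of adjusted p over the alternatives 0.00174 to 1). Both genes had fibrotic-like replicate 1 nearest to the homeostatic libraries, without overlap. Col5a3, another type V chain, overlapped, with 1.23, 1.43 and 5.77 against 2.19, 4.94 and 12.1 CPM.

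In the basement membrane class, the 2 abundant type IV chains separated and types XV and XVIII did not. Col4a1 had 42.3, 35.6 and 57.5 CPM in homeostatic against 112, 178 and 156 CPM in fibrotic-like assembloids at 2.5 weeks (log2 fold change 1.71 ± 0.38, unadjusted p = 0.00108, range of adjusted p over the alternatives 0.00282 to 1). Col4a2 had 12.1, 14.1 and 14.9 against 53.4, 110.1 and 100.2 CPM (2.67 ± 0.70). The groups did not overlap for either gene. Col18a1 had 20.8, 39.5 and 45.9 against 23.9, 27.4 and 36.0 CPM (-0.29 ± 0.54), and Col15a1 8.74, 10.98 and 14.6 against 10.2, 8.34 and 9.05 CPM (-0.33 ± 1.13), with overlapping groups for both. On log2(TPM + 0.1) and log2(TPM + 1), the sign of both reversed.

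The 3 main chains of type VI collagen, the beaded filament around cells, had the same pattern. Col6a1 had 5.51, 10.5 and 15.2 CPM in homeostatic and 31.6, 115 and 171 CPM in fibrotic-like assembloids at 2.5 weeks (log2 fold change 3.34 ± 1.55, edgeR adjusted p = 0.758). Col6a2 had 2.51, 4.36 and 7.22 against 13.6, 61.5 and 92.7 CPM (3.56 ± 1.73), and Col6a3 1.53, 3.08 and 5.41 against 8.19, 36.4 and 55.0 CPM (3.29 ± 1.59). None of the 3 overlapped between the groups, and none reached an unadjusted p under 0.05. Col6a6, another type VI chain, had 10.0, 2.77 and 2.33 CPM in homeostatic against 2.89, 1.34 and 1.28 CPM in fibrotic-like assembloids.

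Among FACITs, Col12a1 had 11.5, 17.2 and 10.7 CPM in homeostatic and 51.2, 165 and 57.4 CPM in fibrotic-like assembloids at 2.5 weeks (log2 fold change 2.77 ± 0.78), with fibrotic-like replicate 2 well above the others. Col14a1, a FACIT of fibroblasts, had 0.0566, 0.124 and 1.06 against 0.266, 6.02 and 5.09 CPM (3.10 ± 1.88), and the groups overlapped. Col8a1, a short network-forming chain, had 4.83, 6.25 and 6.47 against 31.6, 38.0 and 26.98 CPM and did not overlap.

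**Figure D3:**
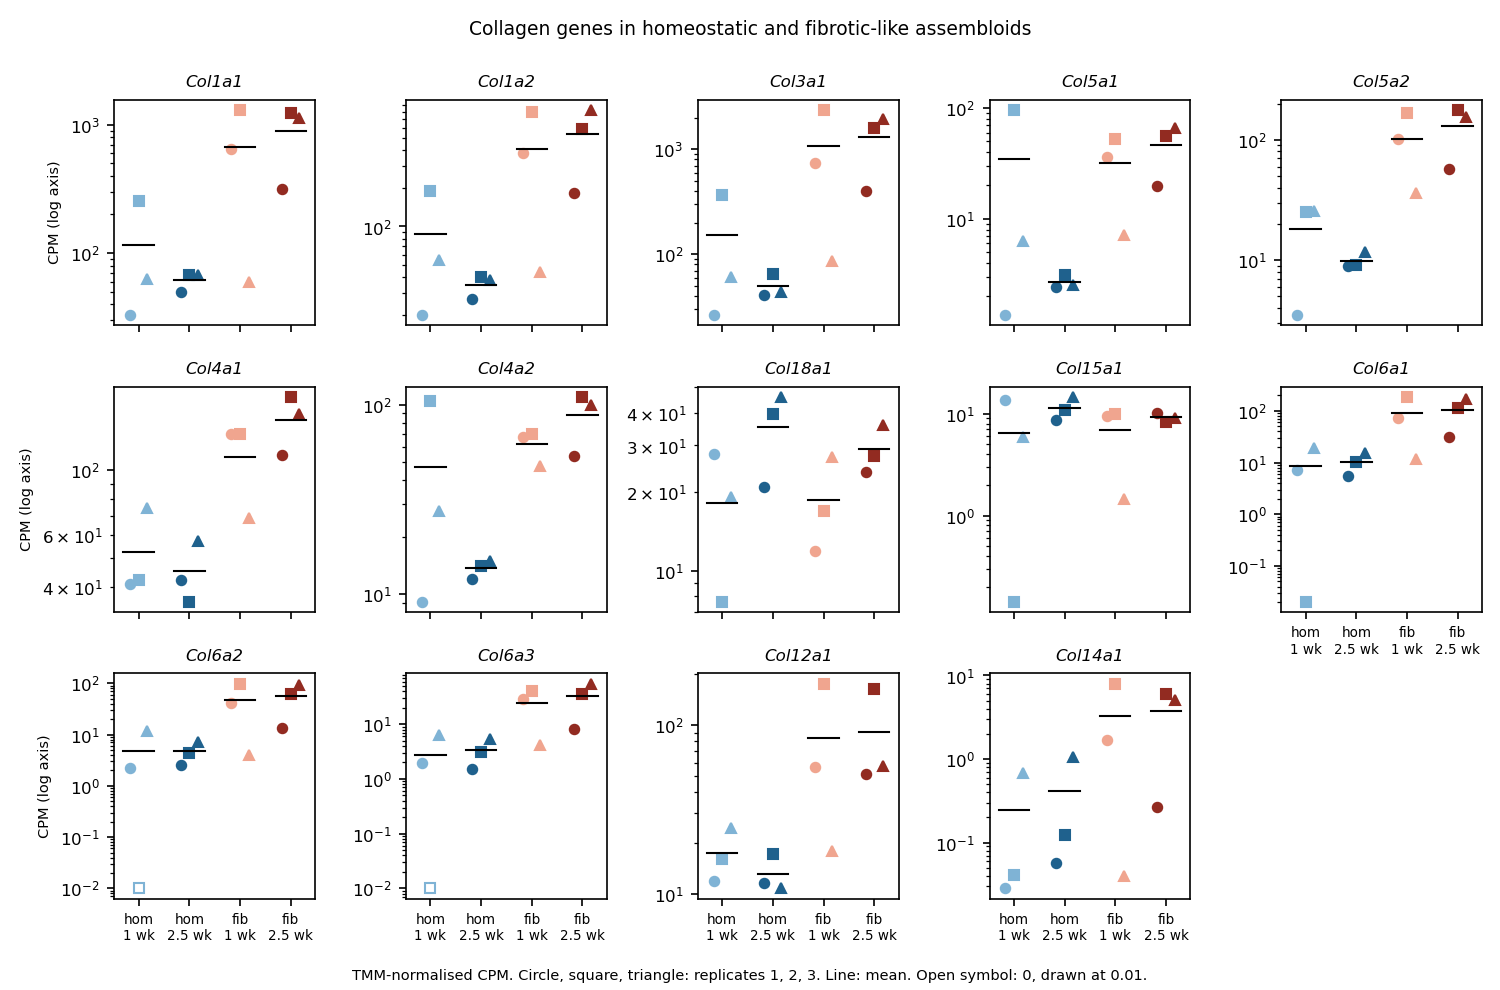
CPM on a log axis of 14 collagen genes in homeostatic (hom, blue) and fibrotic-like (fib, red) assembloids after 1 and 2.5 weeks (wk), with circle, square and triangle for replicates 1, 2 and 3 and a line at the mean. At 2.5 weeks the red points lie above the blue for 11 of the genes but overlap for Col18a1, Col15a1 and Col14a1, and at 1 week homeostatic replicate 2 and fibrotic-like replicate 3 cross over for Col1a1 and Col3a1.

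At 2.5 weeks 21 of the 37 collagens did not overlap between the groups, all higher in the fibrotic-like libraries, beside 37.6% of all genes in either direction and 20.5% higher. By class these were 7 of 10 fibrillar, 3 of 8 basement membrane, 4 of 5 beaded filament, 5 of 8 FACIT, 0 of 2 transmembrane and 2 of 4 network and other genes. The median log2 fold change was 2.12 over the 37 (range -1.45 to 4.70), against 0.03 over all genes. The class medians were 3.64 for fibrillar, 3.34 for beaded filament, 1.87 for FACIT and 1.49 for basement membrane genes. Cell type markers differed beside them. The sum of the 9 mesenchyme markers that are no collagens was 40.0 to 82.5 CPM in homeostatic and 204 to 576 CPM in fibrotic-like libraries, with all 9 fold changes positive. Cholangiocyte markers summed to 133 to 247 against 711 to 4217 CPM. The part of the cell make-up in the collagen differences was not tested.

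At 1 week the same comparison held fewer separate groups. Col1a1 had 33.2, 253 and 62.5 CPM in the homeostatic replicates and 643, 1300.1 and 59.4 CPM in the fibrotic-like ones, so that fibrotic-like replicate 3 was below homeostatic replicates 2 and 3. Col3a1 had 26.6, 366 and 61.1 against 738, 2363 and 86.3 CPM, and Col1a2 20.2, 189 and 54.01 against 381, 791 and 43.7 CPM. The log2 fold changes were 2.60 ± 1.01 for Col1a1 (edgeR adjusted p = 0.317), 2.90 ± 1.18 for Col3a1 (0.325) and 2.28 ± 1.00 for Col1a2 (0.344). Leaving out both libraries that stood apart, a choice made after seeing the data, these were the 3 collagens that edgeR called, all higher, where 1.87% of all genes were called.

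Col5a2 separated at 1 week, with 3.51, 24.9 and 25.5 CPM in homeostatic against 101, 167 and 36.3 CPM in fibrotic-like assembloids (log2 fold change 2.54 ± 0.77, edgeR adjusted p = 0.274). Col5a1 did not, with 1.36, 95.9 and 6.23 against 36.2, 52.2 and 7.07 CPM, and its fold change of -0.02 ± 1.19 turned to 3.03 without homeostatic replicate 2. That library also held 4689 counts of Col5a1, 5093 of Col4a2 and 3658 of Col16a1, a FACIT, beside 1 count of Col6a1 and 0 of Col6a2, Col6a3, Col8a1 and Col27a1. Col4a1 had 41.0, 42.1 and 74.5 against 133, 133 and 68.5 CPM (1.10 ± 0.38, adjusted p = 0.295), and Col4a2 9.15, 104 and 27.5 against 67.7, 70.2 and 47.5 CPM (0.47 ± 0.66). Without homeostatic replicate 2 the Col4a2 value was 1.74 ± 0.46 and passed edgeR's test (adjusted p = 0.0490), and without homeostatic replicate 1 it was 0.025 ± 0.51.

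Of the remaining chains described above, Col6a1 had 7.06, 0.0205 and 19.0 CPM in homeostatic and 72.6, 187 and 11.6 CPM in fibrotic-like assembloids at 1 week (log2 fold change 3.37 ± 1.55). Col6a2 (3.31 ± 1.71) and Col6a3 (3.11 ± 1.57) overlapped in the same way, with fibrotic-like replicate 3 below homeostatic replicate 3. Col12a1 had 11.9, 16.0 and 24.5 against 56.6, 176 and 17.9 CPM (2.28 ± 0.77, edgeR adjusted p = 0.291), and Col14a1 0.0283, 0.0409 and 0.674 against 1.71, 7.97 and 0.0402 CPM (3.51 ± 1.89). Col18a1 (0.05 ± 0.54) and Col15a1 (0.08 ± 1.13) had fold changes near 0 whose sign reversed when a library was left out.

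At 1 week edgeR called 0 of 37 collagens and 0 of all genes (percent called 0), with 8 of 37 collagens at an unadjusted p under 0.05 beside 2012 of 14255 genes. DESeq2 called 3 (Col5a2, Col9a3 and Col11a1) where it called 6.08% of all genes, and voom with library quality weights called 9 where it called 17.1%. edgeR on all 27 libraries called 2 beside 6.21%, and limma called 1 on log2(TPM + 0.1) beside 1.5% and 3 on log2(TPM + 1) beside 6.85%, all higher. Positive fold changes were seen for 32 of 37, with a median of 1.44 against 0.20 over all genes. Of the 37, 7 did not overlap, all higher in fibrotic-like libraries, beside 23.8% of all genes in either direction and 17.4% higher. The sum of the mesenchyme markers was 48.1, 1457 and 129 CPM in the homeostatic and 490, 737 and 461 CPM in the fibrotic-like replicates. Of the 9 markers, 2, 3 and 1 had 0 counts in homeostatic replicates 1 to 3, and 0 in each fibrotic-like library. Homeostatic replicate 2 was thus highest for the sum but not for each marker. Leaving this library out moved log2 fold changes both ways, to 3.79 for Col1a1 and 4.59 for Col3a1 but 0.94 for Col4a1 and 2.53 for Col6a3. None of these passed edgeR's test without it. The part of its mesenchyme in the result was not tested.

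**Figure D4:**
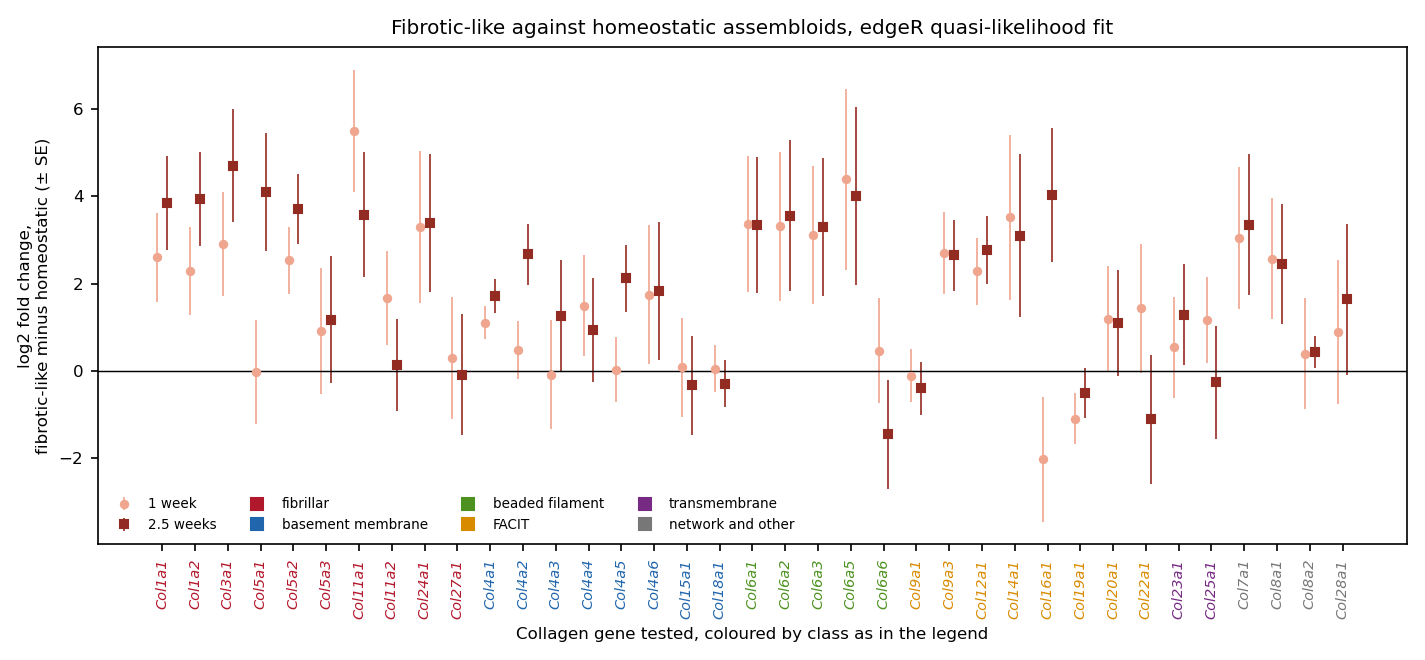
log2 fold change of fibrotic-like minus homeostatic assembloids with its standard error from edgeR for the 37 collagen genes tested, at 1 week (circles) and 2.5 weeks (squares), with names coloured by class. Most points lie above 0, with medians of 1.44 at 1 week and 2.12 at 2.5 weeks, while Col18a1 and Col15a1 lie at 0 and Col16a1 lies on opposite sides of 0 at the 2 times.

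Whether the difference changed with time was tested as an interaction. edgeR and DESeq2 called 0 of 37 collagens for it, where edgeR called 0 of all 14255 genes. At an unadjusted p under 0.05 edgeR had 3 collagens, beside 278 of 14255 genes, namely Col5a1 (4.12 ± 1.74), Col4a2 (2.19 ± 0.95) and Col16a1 (6.06 ± 2.07). All 3 are genes in which homeostatic replicate 2 at 1 week was the highest of its group. The same held for Col1a1, Col1a2 and Col3a1, which are not among the 3. Within the homeostatic assembloids, 2.5 weeks against 1 week gave 0 calls (percent called 0) and 6 collagens at an unadjusted p under 0.05 beside 936 of 14255 genes. The median was -0.01, against 0.27 over all genes, and DESeq2 called 0 collagens with 0.0842% of all genes. Within the fibrotic-like ones edgeR and DESeq2 called 0 collagens, where edgeR called 0 of all 14255 genes. At an unadjusted p under 0.05 edgeR had 0 collagens, beside 122 of 14255 genes. The median was 0.27, against -0.006 over all genes. With so few genes at that p-value, the 0 collagens do not show that collagen levels held steady.

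Chains that assemble with each other were followed as ratios of their counts. Col1a1 to Col1a2 was 1.16 to 2.10 (median 1.67) over the 12 assembloid libraries, including those that stood apart, a narrow range beside the levels. Col6a1 to Col6a2 was 1.59 to 3.19 over the 11 libraries with at least 10 counts of both. Col4a1 to Col4a2 was 0.40 to 4.47 and Col5a2 to Col5a1 0.26 to 5.13. Both low ends were homeostatic replicate 2 at 1 week, and without it the ranges were 1.44 to 4.47 and 2.38 to 5.13. These ratios compare libraries with each other and do not give the chains' molar ratio.

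Genes that fold, cut and bind collagen were taken as fixed lists. At 2.5 weeks edgeR called none of them between fibrotic-like and homeostatic assembloids. The 12 processing and crosslinking genes all had positive fold changes, with 6 at an unadjusted p under 0.05 and a median of 2.73, against 0.03 over all genes. Of the 16 folding and modification genes 13 were positive (median 1.13), of 8 receptors 7 (1.67) and of 8 fibril partners 7 (3.20). At 1 week the medians were 1.65 for processing, 0.05 for folding, 1.30 for receptors and 0.49 for fibril partners, again with 0 calls.

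Serpinh1 (HSP47), the chaperone of the collagen triple helix, had 3.38, 1.57 and 3.66 CPM in homeostatic and 14.8, 36.1 and 31.1 CPM in fibrotic-like assembloids at 2.5 weeks. At 1 week Serpinh1 had 0.935, 4.46 and 3.31 against 25.9, 44.4 and 9.70 CPM. The groups did not overlap at either time, and the log2 fold change was 3.23 ± 0.77 at both. Lox, which crosslinks fibrils, had 2.74, 1.55 and 6.17 against 30.2, 178 and 33.3 CPM at 2.5 weeks (4.5 ± 1.62). At 1 week Lox had 2.04, 209 and 4.46 against 48.0, 54.7 and 11.4 CPM, with homeostatic replicate 2 highest (-0.81 ± 1.41).

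Ddr2, the fibrillar collagen receptor of mesenchymal cells, had a log2 fold change of 3.72 ± 1.46 at 2.5 weeks, and Sparc, a collagen-binding matrix protein, of 3.73 ± 1.18. Dcn (decorin), which binds fibrils, had 3.73 ± 0.89, and Adamts2, which removes the amino-terminal propeptide, 3.5 ± 1.27. Fn1 (fibronectin), which hepatocytes also make, had 0.03 ± 0.46. Pdgfra, which marks the added mesenchyme, had 1.89, 1.45 and 4.29 CPM in homeostatic and 19.8, 74.0 and 72.9 CPM in fibrotic-like libraries at 2.5 weeks, so that it separated the groups as Col1a1 did.

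Against MM HepOrgs at 1 week, which share the medium but have no added mesenchyme or cholangiocytes, fibrotic-like assembloids had 1 collagen that passed edgeR's test of 36, and 0.751% of all genes were called. Col4a1 rose from 38.8, 26.1 and 29.5 CPM in MM HepOrgs to 133, 133 and 68.5 CPM (log2 fold change 1.82 ± 0.36, edgeR adjusted p = 0.0343). This call was lost without any 1 of the 6 libraries (adjusted p 0.0656 to 0.165) and with the replicate number as a block (0.0628), although the fold change stayed between 1.64 and 2.05 when a library was left out. Col1a1 had 60.6, 24.6 and 39.2 CPM in MM HepOrgs, so that fibrotic-like replicate 3 (59.4) fell within their range (4.01 ± 1.12, adjusted p = 0.0748). Col18a1 had 51.3, 65.8 and 52.2 CPM in MM HepOrgs and 11.96, 16.9 and 27.1 CPM in fibrotic-like assembloids, without overlap and in the other direction (-1.61 ± 0.49, adjusted p = 0.0896).

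Of the 36 collagens, 17 did not overlap in that comparison, beside 49.1% of all genes, and 16 had an unadjusted p under 0.05, beside 3004 of 14388 genes. DESeq2 called 16 collagens with 14.5% of all genes, and edgeR without both libraries that stood apart called 17 with 24.6%. Homeostatic assembloids against the same MM HepOrgs gave 0 of 36 calls (percent called 0), 7 at an unadjusted p under 0.05, beside 2251 of 14388 genes, and 5 without overlap beside 18.1% of all genes. DESeq2 called 3 there with 6.23% of all genes, namely Col18a1 as lower and Col5a1 and Col4a2 as higher. Among the homeostatic libraries Col5a1 and Col4a2 were by far highest in replicate 2, which stood apart, and DESeq2 was not run without it. edgeR called 0 collagens in this comparison with and without that library. Both comparisons share the MM HepOrg libraries. Side by side, the median log2 fold change over the 36 was 2.25 for fibrotic-like and 0.65 for homeostatic assembloids, against 0.11 and -0.21 over all genes.

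HepOrgs were next set against fresh hepatocytes, where the collagens split in both directions. Against fresh hepatocytes, edgeR called 13 of 31 collagens in HM-Wnt HepOrgs at 1 week (4 higher, 9 lower) where it called 49.7% of all genes (24.9% higher, 24.8% lower). At 2 weeks it called 14 (4 higher, 10 lower) beside 51.8% (26.1% higher, 25.7% lower). In MM HepOrgs it called 12 (6 higher, 6 lower) at 1 week beside 42.8% (21.5% higher, 21.3% lower) and 11 (4 higher, 7 lower) at 2 weeks beside 39.7% (19.7% higher, 20% lower). The shares of collagens called, 11 to 14 of 31, were each below these backgrounds. The 4 comparisons share the fresh hepatocyte libraries.

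Col12a1, the FACIT on type I fibrils, rose in all HepOrg groups. It had 0.950, 2.68 and 1.64 CPM in fresh hepatocytes, 47.8, 32.8 and 31.4 in HM-Wnt HepOrgs at 1 week and 65.7, 47.8 and 46.4 at 2 weeks. In MM HepOrgs Col12a1 had 48.9, 49.7 and 75.6 CPM at 1 week and 24.4, 20.8 and 32.4 at 2 weeks. Each HepOrg library was above each fresh library, and the rise passed the edgeR test in all 4 groups, with log2 fold changes of 4.35 ± 0.36, 4.88 ± 0.37, 4.997 ± 0.37 and 3.83 ± 0.36 in that order and adjusted p from 4.82e-07 to 3.96e-06. Without each library in turn the call held in all 4.

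Among basement membrane chains, Col4a5 had 0.380, 0.767 and 0.486 CPM in fresh hepatocytes against 3.80 to 8.56 CPM over the 12 HepOrg libraries, and rose in all 4 groups (log2 fold changes 3.31 ± 0.37, 3.33 ± 0.37, 3.46 ± 0.37 and 3.01 ± 0.36). Col4a4 and Col4a3, head-to-head neighbours that assemble with Col4a5 in kidney and other tissues, went opposite ways. Col4a4 rose in HM-Wnt HepOrgs at 1 week (2.71 ± 0.59, edgeR adjusted p = 0.00208) and 2 weeks (2.00 ± 0.57) and in MM HepOrgs at 1 week (1.74 ± 0.56), while its value in MM HepOrgs at 2 weeks was 0.11 ± 0.51. Col4a3 fell in the 4 groups in the same order (-1.61 ± 0.52, -2.24 ± 0.52, -1.65 ± 0.51 and -2.46 ± 0.53). The Col4a3 call in MM HepOrgs at 1 week was lost when any of 3 of the 6 libraries was left out (edgeR adjusted p up to 0.0841). Both were low, with Col4a3 at 1.66, 2.00 and 3.04 CPM in fresh hepatocytes and Col4a4 at 0.190, 0.170 and 0.0912.

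Col4a1 rose against fresh hepatocytes in MM medium. It had 3.91, 14.9 and 7.84 CPM in fresh hepatocytes and 38.8, 26.1 and 29.5 CPM in MM HepOrgs at 1 week (log2 fold change 1.79 ± 0.50, edgeR adjusted p = 0.0117), then 44.3, 24.8 and 35.1 CPM at 2 weeks (1.93 ± 0.51, 0.00824). In HM-Wnt HepOrgs Col4a1 had 16.0, 5.20 and 15.1 CPM at 1 week and 12.8, 5.51 and 11.5 at 2 weeks, which overlapped with the fresh cells. Col1a1 rose in MM HepOrgs at 1 week (5.04 ± 1.65, adjusted p = 0.0251), from 0.0272, 3.41 and 0.304 CPM. That call was lost without MM replicate 1, fresh replicate 1 or fresh replicate 3 (adjusted p 0.0537, 0.0689 and 0.0832). Col8a1 rose in all 4 groups from 0, 0.0426 and 0.122 CPM in fresh cells, to 6.15, 0.999 and 2.98 CPM in HM-Wnt HepOrgs at 1 week (4.98 ± 1.08). In MM HepOrgs at 2 weeks the Col8a1 call (2.74 ± 0.97, adjusted p = 0.0382) was lost without any of 4 of the 6 libraries.

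Col18a1, the most abundant collagen of fresh hepatocytes, fell in HepOrgs. It had 194, 129.85 and 91.0 CPM in fresh hepatocytes, 29.3, 6.70 and 24.5 in HM-Wnt HepOrgs at 1 week and 28.3, 27.4 and 25.2 at 2 weeks. In MM HepOrgs Col18a1 had 51.3, 65.8 and 52.2 CPM at 1 week and 63.7, 32.5 and 26.0 at 2 weeks. No HepOrg library reached the lowest fresh one. The log2 fold change was -2.80 ± 0.47 and -2.37 ± 0.47 in HM-Wnt medium (edgeR adjusted p = 0.000336 and 0.000912) and -1.31 ± 0.45 and -1.77 ± 0.46 in MM medium (0.0319 and 0.00755). The call in MM medium at 1 week was lost without any of 5 of the 6 libraries, with adjusted p up to 0.127.

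**Figure D5:**
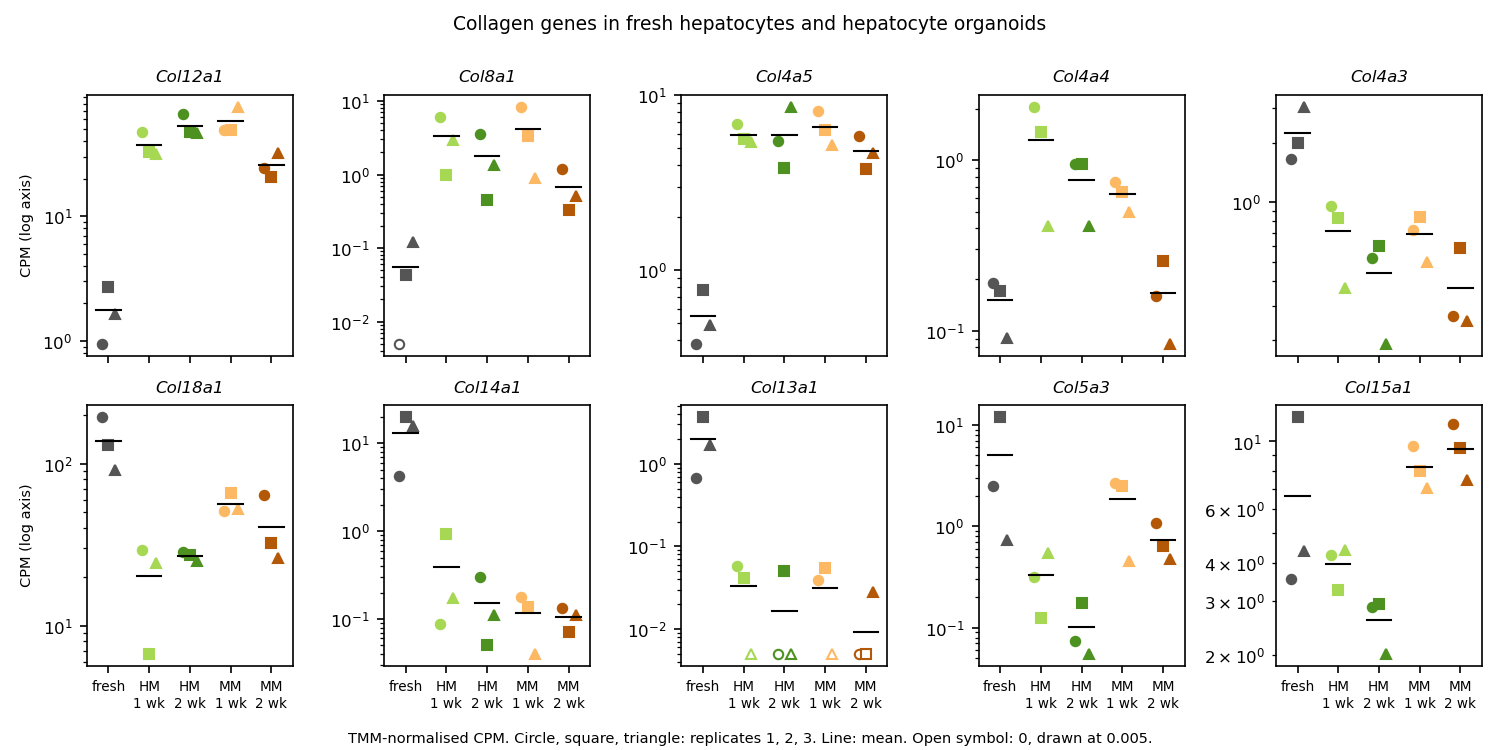
CPM on a log axis of 10 collagen genes in fresh hepatocytes and in HepOrgs in HM-Wnt (HM, green) or MM (orange) medium after 1 and 2 weeks (wk), with circle, square and triangle for replicates 1, 2 and 3, a line at the mean and open symbols for 0. Col12a1, Col8a1 and Col4a5 lie above the fresh cells in all 12 HepOrg libraries, and Col18a1 and Col14a1 lie below them.

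Col14a1, Col13a1, Col5a3 and Col6a3 also fell in HepOrgs. Col14a1 had 4.21, 19.8 and 15.5 CPM in fresh hepatocytes and 0.040 to 0.916 CPM over the 12 HepOrg libraries, and fell in all 4 groups (log2 fold changes -5.02 ± 0.86, -6.03 ± 0.89, -6.32 ± 0.90 and -6.43 ± 0.91). Col13a1, a transmembrane collagen, had 0.679, 3.66 and 1.70 CPM in fresh hepatocytes and at most 0.058 in HepOrgs, and fell in all 4. Col5a3 (2.50, 11.9 and 0.729 CPM in fresh hepatocytes) fell in HM-Wnt HepOrgs at both times and in MM HepOrgs at 2 weeks, where the call (-2.74 ± 0.90) was lost without MM replicate 2 or 3 or fresh replicate 2 (-2.65, -2.50 and -1.08) and with the replicate block (edgeR adjusted p = 0.0508). Col6a3 fell in HM-Wnt HepOrgs at 1 week (-3.28 ± 1.05) and 2 weeks (-3.08 ± 1.04), and each call was lost when any of 3 of the 6 libraries was left out (edgeR adjusted p up to 0.0643 and 0.0662). Of the 7 fibrillar genes tested in MM HepOrgs, 5 had positive fold changes at each time, with medians over the 7 of 2.76 and 1.88 on the log2 scale.

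Markers of other liver cells were read beside these falls. The 8 endothelial markers summed to 27.5, 125 and 99.0 CPM in fresh hepatocytes against 0.523 to 2.27 CPM in HepOrgs, and all 6 that could be tested fell in all 4 groups. The 8 immune markers summed to 48.2, 479 and 186 CPM in fresh hepatocytes and 7.78 to 748 CPM in HepOrgs, where MM replicate 3 at 2 weeks was above each fresh library and the other 11 were at 70.4 CPM or below. Of the 7 immune markers tested, 6, 5, 5 and 3 fell and 1, Cd68, rose in the 4 groups. The 4 stellate cell markers overlapped, with 15.4, 49.9 and 34.7 CPM in fresh hepatocytes, 16.9 to 63.4 CPM in HM-Wnt and 1.42 to 20.3 CPM in MM HepOrgs. Lrat and Ngfr of that list fell in all 4 groups, and Reln had values of 1.33 ± 0.62 and 1.18 ± 0.62 in HM-Wnt medium, which did not pass. Replicate 1 was the lowest and replicate 2 the highest fresh library for the 3 sums and also for Col14a1, Col13a1 and Col1a1. Other collagens had another order, with Col5a3 lowest in replicate 3 and Col18a1 highest in replicate 1 and lowest in replicate 3. The part of these other cells in the collagen differences was not tested.

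The counts for the lists of genes that fold, process and bind collagen stand beside calls of 49.7%, 51.8%, 42.8% and 39.7% of all genes in the same 4 comparisons, and nothing particular to a list is read from them. Of the 15 folding and modification genes tested against fresh hepatocytes, 6, 7, 7 and 7 rose and 2, 2, 2 and 1 fell, in HM-Wnt HepOrgs at both times and then MM HepOrgs at both. Plod2, the lysyl hydroxylase of collagen telopeptides, had 0, 0.298 and 0.0608 CPM in fresh hepatocytes and 52.6, 85.7 and 61.6 CPM in HM-Wnt HepOrgs at 1 week (log2 fold change 8.73 ± 0.60, edgeR adjusted p = 2.46e-07). Plod2 was at 21.5 to 110.4 CPM over all 12 HepOrg libraries. P4ha1 and P4ha2, catalytic chains of prolyl 4-hydroxylase, rose in all 4 groups, for P4ha2 by 1.33 ± 0.39 to 2.71 ± 0.41, as did Crtap, a part of the prolyl 3-hydroxylase complex.

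Of the 11 processing and crosslinking genes tested, 4, 5, 4 and 3 passed in the same order of groups. Of these 2, 3, 3 and 2 rose and 2, 2, 1 and 1 fell, with the lysyl oxidase-like genes Loxl4 and Loxl2 rising in each group. Of the 6 receptors, 3, 3, 3 and 2 passed, with 2, 2, 2 and 1 higher and 1 lower in each group. Ddr1, the collagen receptor of epithelial cells, had 0.435, 0.469 and 0.213 CPM in fresh hepatocytes and 14.0 to 28.6 CPM over the HepOrg libraries (log2 fold changes 5.51 ± 0.28 to 5.88 ± 0.29). Of the 7 fibril partners tested, 3, 3, 1 and 1 passed, with Fn1 higher in all 4 groups (0.98 ± 0.24 to 1.78 ± 0.24) and Dcn and Lum lower in HM-Wnt medium.

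The switch of medium was compared within the HepOrgs. At 2 weeks, edgeR called 4 of 25 collagens between MM and HM-Wnt medium where it called 11.5% of all genes. This fit left out the replicate numbers, which paired the HepOrg libraries, and the calls with them as a block are given below. Col15a1, a proteoglycan-like basement membrane collagen, had 2.86, 2.93 and 2.01 CPM in HM-Wnt and 11.4, 9.5 and 7.5 CPM in MM medium (log2 fold change 1.86 ± 0.24, edgeR adjusted p = 0.00122). Col4a1 had 12.8, 5.51 and 11.5 against 44.3, 24.8 and 35.1 CPM (1.81 ± 0.42, 0.0206). Each MM library was above each HM-Wnt library for both genes. Col5a3 rose as well, from 0.0747, 0.175 and 0.0550 CPM, near the floor of the assay, to 1.07, 0.633 and 0.476 CPM (2.36 ± 0.67, 0.0429). Col12a1 fell, from 65.7, 47.8 and 46.4 to 24.4, 20.8 and 32.4 CPM (-1.03 ± 0.25, 0.0223).

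Of these 4, Col15a1 alone passed without each library in turn. Same-numbered HepOrg libraries deviated together, and with the replicate number as a block 7 collagens were called at 2 weeks, with Col4a2 higher and Col6a6 and Col4a4 lower besides, where 19.6% of all genes were called. At 1 week 1 of 25 passed, beside 2.98% of all genes. Col15a1 had 4.23, 3.25 and 4.41 CPM in HM-Wnt and 9.69, 8.01 and 7.06 CPM in MM medium (1.05 ± 0.23, edgeR adjusted p = 0.0379), and the call was lost without any of 5 of the 6 libraries. With the block 3 passed, Col15a1, Col18a1 and Col4a1, all higher in MM medium, where 9.48% of all genes did.

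The fibrillar chains varied widely between HepOrg replicates. At 1 week Col1a1 had 4.03, 0.208 and 17.2 CPM in HM-Wnt and 60.6, 24.6 and 39.2 CPM in MM medium, without overlap but below the test (log2 fold change 2.51 ± 1.31, edgeR adjusted p = 0.279). At 2 weeks it had 5.11, 0.150 and 9.77 against 3.00, 14.0 and 43.7 CPM, with overlap. Replicate 2 of the HM-Wnt HepOrgs was the lowest at both times, at 5 and 6 counts of Col1a1. All 7 fibrillar genes tested had positive fold changes at 1 week, with a median of 2.29. The mesenchyme markers summed to 29.6 to 106 CPM in HM-Wnt and 39.3 to 84.0 CPM in MM HepOrgs. HM-Wnt replicate 2, with the fewest Col1a1 counts, held 46.7 and 36.0 CPM of them at 1 and 2 weeks. In the same groups replicate 1 held 32.3 and 29.6 CPM and replicate 3 held 53.1 and 106 CPM. Of the 9 markers, 5 had 0 counts in HM-Wnt replicate 2 at both times. This number was 3 and 0 in replicate 1, and 0 and 1 in replicate 3. The part of mesenchymal cells in the Col1a1 values was not tested.

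Several members stayed at the floor of the assay. Col10a1, a chain of growth plate cartilage, had 0 counts in all 27 libraries, and it, Col9a2 and Col6a4 were under 10 counts in every library. Col2a1, Col8a2, Col9a2 and Col6a4 did not exceed 0.43 CPM in any library. Depending on the comparison, 7 to 19 of the 44 collagens were too low to test. At the other end, 14 members had counts in all 27 libraries.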

How the data were processed

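RNA was isolated with the PicoPure kit and made into Smart-seq2 and Nextera libraries, which carry no strand mark. The authors mapped reads with STAR to GRCm39, per the submitters' processing notes, and deposited counts per gene and library in 1 table beside a TPM column that is scaled by a gene length close to the whole gene span. The counts were used as deposited. The table holds 37 libraries, of which 27 carry the labels compared here and 10 were not used, and 79 rows have no gene name. Total counts of 30289364 to 65348596 per library set the precision, and intervals and floors of counts would cover counting error only.

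Groups came from the sample titles. The main test was edgeR 4.0.16 (R 4.3.3): TMM scaling, filterByExpr (minimum count 10, minimum total 15), quasi-likelihood fits with 1 mean per group, prior count 2, and Benjamini-Hochberg adjustment over all genes tested with a threshold of 0.05. There were 4 fits: the 12 assembloid libraries (14255 genes, 37 collagens), the assembloids with MM HepOrgs (18 libraries, 14388 genes, 36 collagens), fresh hepatocytes with HepOrgs (15 libraries, 13405 genes, 31 collagens) and the HepOrgs (12 libraries, 12989 genes, 25 collagens). Log2 fold changes are given with their standard error. The fits were also run on simulated counts with known fold changes, to check the direction and size of the estimates. Those counts held no library that stood apart, so this run does not show which differences the assembloid fit could detect.

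Alternatives were DESeq2 1.42.0, RLE size factors, other filters, all 27 libraries in 1 fit, only the groups compared, limma 3.58.1 on log2(TPM + 1) or log2(TPM + 0.1) of genes with TPM of at least 1 in 3 libraries, a replicate block, and leaving out each library. The TPM values were the authors' own, as deposited. Voom with library quality weights, and leaving out both libraries that stood apart, were chosen after seeing the data.

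Same-numbered libraries deviated together in the HepOrg fit, where all 18 pairs of different groups had correlations over 0.1 (0.127 to 0.503), so the replicate numbers paired the HepOrg libraries. In the other fits 6 of 18, 11 of 45 and 19 of 30 pairs did.

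Named collagens were a fixed set of 14 in the assembloid comparisons, and elsewhere the called members at both ends of the fold changes, at most 5 a side. The members, lists and rules were chosen with earlier results of these data known. Exon lengths, classes of exon and sequences came from GENCODE vM39. Scripts ran in Python 3.11.15 with pandas 2.3.3 and matplotlib 3.10.9.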

Additional observations from a re-analysis of the deposited data

Results flagged for a closer look

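Reporter transcripts of the added cells were counted too and entered no comparison above. eGFP had a median of 1251 counts over the 12 assembloid libraries (23 to 40767), against 0 to 1 in the 15 HepOrg and fresh hepatocyte libraries. tdTomato had a median of 369.5 counts over the 12 assembloid libraries (9 to 6277), against 0 in each of the other 15.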

How the results depend on the processing

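Counts of collagens called moved as follows. For fibrotic-like against homeostatic assembloids at 1 week (0 called), DESeq2 gave 3, all 27 libraries in 1 fit 2, log2(TPM + 0.1) 1, log2(TPM + 1) 3, voom with library quality weights 9, omitting both libraries that stood apart 3, and leaving out 1 library 0 to 2 (2 without homeostatic replicate 2). At 2.5 weeks (0 called), DESeq2 gave 8, only the groups compared 13, voom 15 and leaving out 1 library 0 to 0. For homeostatic assembloids against MM HepOrgs (0), DESeq2 gave 3, all 27 libraries 1 and leaving out 1 library 0 to 5 (5 without homeostatic replicate 1). For fibrotic-like assembloids against MM HepOrgs (1), DESeq2 gave 16, all 27 libraries 2, at least 10 counts in every library 7, log2(TPM + 0.1) 12, log2(TPM + 1) 11, only the groups compared 15, omitting both that stood apart 17 and leaving out 1 library 0 to 0. Against fresh hepatocytes, the order below is HM-Wnt at 1 and 2 weeks, then MM at 1 and 2 weeks (13, 14, 12 and 11 called). All 27 libraries in 1 fit gave 8, 8, 7 and 7, at least 10 counts in every library 5, 6, 6 and 5, both TPM scales 2, 2, 5 and 4, and leaving out 1 library 8 to 14, 11 to 13, 8 to 12 and 9 to 11. Without fresh replicate 3, labelled MDR2-het, the counts were 9, 12, 8 and 11. Between media at 1 week (1), DESeq2 gave 6, all 27 libraries, both TPM scales and only the groups compared 0, and leaving out 1 library 0 to 3 (3 without MM replicate 3). At 2 weeks (4), all 27 libraries gave 0, log2(TPM + 0.1) 1, log2(TPM + 1) 2 and leaving out 1 library 1 to 4. The filter of at least 10 counts in every library and the TPM filter left fewer of the named collagens to test. A lower count under these settings can thus come from genes that were not tested. The share of all genes called also differed between settings, and nothing particular to collagens is read from these counts alone. Any other cause of these moves was not tested.

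With the replicate block, 0 collagens were called for fibrotic-like assembloids against MM HepOrgs, 3 between media at 1 week and 7 at 2 weeks, the last 2 in the fit in which the numbers paired the libraries. RLE size factors and no filter on low counts ended or turned no call of a named collagen.

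Signs that reversed, as log2 fold changes of fibrotic-like against homeostatic assembloids, were all of values that passed no edgeR test. For Col15a1 at 1 week (0.08) they were -0.21 and -0.26 without fibrotic-like replicates 1 and 2, -0.49 without homeostatic replicate 2 (range on leaving out 1 library -0.49 to 1.17) and -0.01 without both that stood apart, and at 2.5 weeks (-0.33) 0.25 and 0.12 on log2(TPM + 0.1) and log2(TPM + 1). For Col18a1 at 1 week (0.05) they were -0.75 by voom, -0.32 without fibrotic-like replicate 3, -0.33 without homeostatic replicate 2 (range -0.33 to 0.52) and -0.70 without both, and at 2.5 weeks (-0.29) 0.33 and 0.23 on the TPM scales. For Col5a1 at 1 week (-0.02) they were 0.040 with all 27 libraries, 0.34 with at least 10 counts in every library, 1.53 and 0.55 on the TPM scales, 0.023 with only the groups compared, 0.86 with the block, 3.23 by voom, 0.45 without fibrotic-like replicate 3, 3.03 without homeostatic replicate 2 (range -0.58 to 3.03) and 3.5 without both.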
